A study of Rattus norvegicus with 24 samples.

Results

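The livers compared here came from adult female rats that had all eaten a high-fat diet (HFD) and that differed in what their grandfathers had eaten. They are the 11 HFD-fed females among the 24 females of the series, chosen by their sample titles and not by any measured value. In 6 of them the grandfather had been fed chow (the chow line), and in 5 he had been fed an HFD (the HFD line). All were Sprague-Dawley females of the F2 generation, the grandfathers were F0 founders, and each female ate an HFD with 42 or 45% of energy from fat for 12 weeks, the labels giving both figures. The other 13 females ate chow, 7 of the chow line and 6 of the HFD line, and serve here only to show whether a difference between lines also appeared without the HFD. Total RNA from liver was hybridised to Affymetrix whole-transcript arrays, 1 array per female. Arrays carry the number in the sample title: 22, 31, 32, 33, 34 and 35 in the chow line, and 24, 44, 45, 46 and 47 in the HFD line. The labels name neither litter nor sire nor grandsire for any female, and arrays were taken as independent. If some females were related, p-values here are too small, and in any case they measure only the spread between these samples.

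Liver takes up, burns, stores and exports fat. Fatty acids switch on their own oxidation through the nuclear receptor PPAR alpha, while sterol and fatty acid synthesis are driven by SREBP transcription factors and dampened or raised by the food supply. The liver also carries a resident population of immune cells and a standing low level of interferon signalling, read out by a set of genes whose promoters bind interferon-activated STAT and IRF proteins. The comparison asks whether a high-fat diet in the grandfather left a mark on these programmes in granddaughters that met the same diet.

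The growth protocol in the labels speaks of gonadal white adipose tissue, while title, source and tissue labels say liver. Hepatocyte genes were at the top of the range: Alb, the main plasma protein made by the liver, had a log2 signal of 13.40 to 13.68 across the 11 arrays. The adipokine genes Adipoq (5.94 to 6.62) and Lep (5.56 to 6.01) lay near the threshold of 5.72 below which probe sets were left out as too dim, and the fat droplet protein gene Plin1 lay at 6.08 to 6.88. All signals are log2(intensity + 16), and differences are the HFD line minus the chow line on that scale, which understates the differences of dim genes. The ± after a difference is its standard error from limma.

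The HFD-line arrays were dimmer. Their array medians over all probe sets were 6.965 (array 24), 6.929 (44), 6.886 (45), 6.914 (46) and 7.017 (47), against 6.832, 7.059 and 7.104 for the lowest, middle and highest values of the chow line. The mean array median was 6.942 ± 0.051 (SD, n = 5) in the HFD line and 7.027 ± 0.1 (SD, n = 6) in the chow line, and array 34 of the chow line, the dimmest of all 11, made the groups overlap. The difference of -0.084 had a two-sided exact permutation p of 0.115 over 462 regroupings, which can go no lower than 0.00433. Over the tested probe sets alone the difference was -0.13 (exact permutation p = 0.0411), and without array 34 it was -0.123 over all probe sets (exact permutation p = 0.00794). The 13 chow-fed arrays had means of 7.045 ± 0.123 (SD, n = 7) in the chow line and 7.005 ± 0.045 (SD, n = 6) in the HFD line. The sources used here do not say whether dimness came from the livers, the RNA or the hybridisation, and this was not tested. Arrays 22 and 24, 1 of each line, also stood apart from the other 9 together with 2 chow-fed arrays (21 and 25) on the second principal component (13.8% of the variance), and values without these 4 arrays are given for several of the gene lists.

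**Figure D1:**
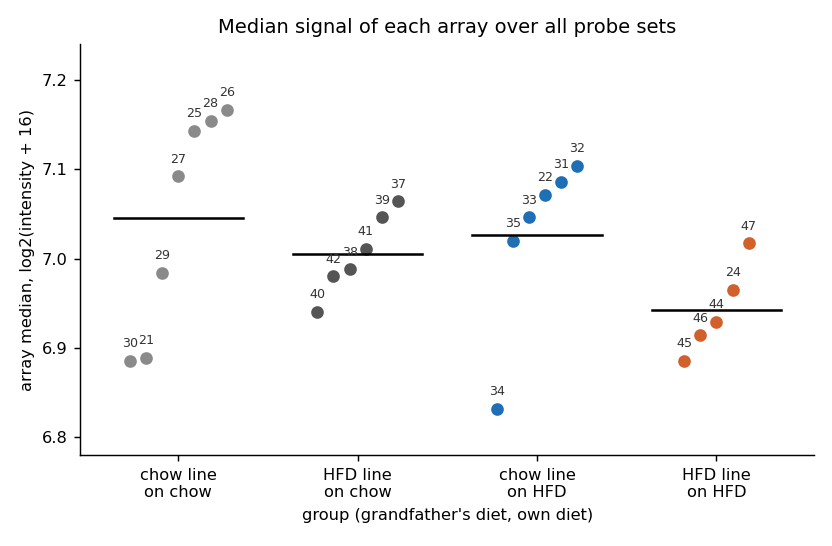
Median log2(intensity + 16) of each of the 24 arrays over all 20917 probe sets, by grandfather's diet and own diet; points are arrays with their numbers and bars are group means. The 5 HFD-line arrays of HFD-fed females lie between 6.886 and 7.017, and array 34 of the chow line lies below all of them.

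The lower brightness ran through most of the transcriptome. Of 15687 tested probe sets, 81% were lower in the HFD line, with a median difference of -0.103. It grew with signal: with probe sets split by signal into 4 bins of equal size, the median difference was -0.035 in the dimmest bin, then -0.095 and -0.136, and -0.141 in the brightest. After quantile normalization, which gives every array the same distribution of values, the 4 bins had medians of -0.003, -0.003, -0.001 and 0. A difference below is as deposited unless quantile normalization is named, and a gene in the 2 brighter bins has to be lower by more than about 0.14 before it departs from the general shift.

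**Figure D2:**
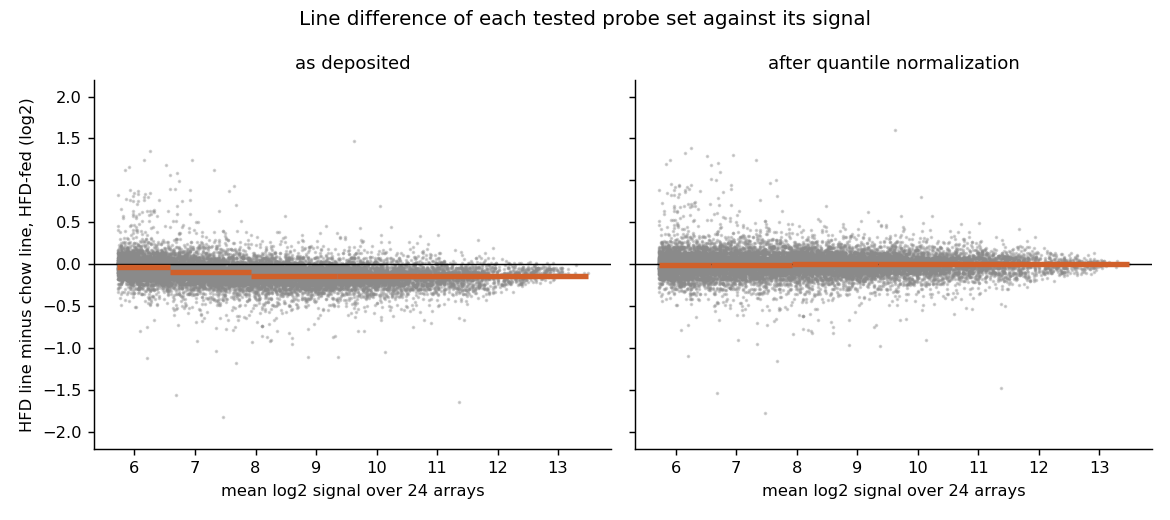
Difference between lines in HFD-fed females (HFD line minus chow line, log2) for each of the 15687 tested probe sets against its mean log2 signal over 24 arrays, as deposited (left) and after quantile normalization (right); orange bars are medians of the 4 signal bins. The medians go from -0.035 to -0.141 on the left and lie at -0.003 to 0 on the right.

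No probe set passed the threshold of 0.05 on limma's Benjamini-Hochberg adjusted p in either direction, with or without normalization. As deposited the smallest adjusted p was 0.175, and 54 probe sets were higher and 1668 lower at an unadjusted p under 0.05 (0.344% and 10.6% of those tested). After quantile normalization the smallest adjusted p was 0.608, and the counts were 419 higher and 447 lower (2.67% and 2.85%). Counted per gene, with the brightest probe set standing for each of 12745 genes, 0.149% were higher and 9.96% lower at an unadjusted p under 0.05 as deposited, and 2.32% and 2.59% after quantile normalization. The groups did not overlap for 2 higher and 183 lower probe sets as deposited (0.0127% and 1.17%), and for 29 and 28 after quantile normalization (0.185% and 0.178%). Counted per gene these shares were 0.00785% and 1.11% as deposited and 0.188% and 0.165% after quantile normalization. A gene named below as not overlapping did not overlap as deposited, and its overlap after normalization is not given. In Rtp4, Dtx3l, Ifit2, Vnn1, Elovl2, Cyp2a1, Fam181b, Sntb1, Gdf15 and Ifgga2l1 the gap between groups was smaller than the general shift of bright genes. The 95% interval of the difference lay within 1 log2 unit of 0, for 98.4% of probe sets, and the median distance from the estimate to either end of it was 0.24. Lower in the HFD line at any p were 81.7% of all genes as deposited and 50.7% after quantile normalization. List counts below are to be read beside these shares and the per-gene shares at an unadjusted p under 0.05. What follows describes directions and sizes in gene groups. Unless said otherwise, no gene named passed the adjusted threshold.

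The probe set with the smallest p (10799888) has no gene name here. Its log2 signal was 7.03 (array 24), 7.17 (44), 6.93 (45), 7.13 (46) and 7.14 (47) in the HFD line, against 7.33, 7.77 and 7.98 for the lowest, middle and highest chow-line arrays. The groups did not overlap, and the difference was -0.60 ± 0.11 as deposited (adjusted p = 0.175) and -0.50 after quantile normalization. In chow-fed females its difference between lines was 0.05. It passed the threshold when array 22 was left out (adjusted p = 0.026) or array 33 (0.0431), as deposited, and after quantile normalization without array 22 (0.0424).

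Interferon-inducible genes had the lowest median difference of all the gene lists described here, with and without normalization. Of 28 listed genes 27 were measured, 26 of them were lower in the HFD line, and 12 were lower at an unadjusted p under 0.05, where 9.96% of all genes were. Their median difference was -0.37 as deposited, beside -0.103 over all probe sets. After quantile normalization 24 of 27 were lower and 8 were so at an unadjusted p under 0.05, where 2.59% of all genes were, with a median of -0.24. Leaving out each array in turn, the median lay between -0.44 and -0.31 as deposited and between -0.31 and -0.18 after quantile normalization. The number of genes lower at an unadjusted p under 0.05 lay between 9 and 16 as deposited and between 4 (without array 33) and 12 after quantile normalization. Without arrays 21, 22, 24 and 25 it was -0.32 (9 genes at an unadjusted p under 0.05), and with quantile normalization as well -0.20 (4 genes).

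Averaged over the list, each array's departure from the genes' means over 24 arrays was -0.69 (array 24), -0.23 (44), -0.39 (45), -0.32 (46) and 0.07 (47) in the HFD line. In the chow line it was -0.13 (array 22), 0.03 (31), 0.12 (32), 0.27 (33), -0.43 (34) and 0.32 (35). Thus 4 of the 5 HFD-line livers were low, array 47 was not, and array 34, the dim one, was low in the chow line; the groups overlapped, and they did so after quantile normalization too, with HFD-line values of -0.61 to 0.07 and chow-line values of -0.30 to 0.30.

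For the 3 promoters printed next, the 250 bases before the gene start show the DNA element that ties such genes to interferon. The interferon-stimulated response element has a core of TTTC, any 2 bases and TTTC again, which reads GAAA, any 2 bases and GAAA on the other strand, and it binds IRF proteins. In RefSeq windows of 300 bases (250 before the start and 50 from it on, build GRCr8), this core on either strand, overlaps included, was present in 15 of the 21 measured interferon genes with a window and in 1312 of all 33469 windows (3.92%). Of the 9 with a window that were lower at an unadjusted p under 0.05, 5 held it. The sequences run 5′ to 3′ on the plus strand, from which all 3 genes are read, with matches to the core in capitals.
Ifi44l, chr2:243328473-243328722: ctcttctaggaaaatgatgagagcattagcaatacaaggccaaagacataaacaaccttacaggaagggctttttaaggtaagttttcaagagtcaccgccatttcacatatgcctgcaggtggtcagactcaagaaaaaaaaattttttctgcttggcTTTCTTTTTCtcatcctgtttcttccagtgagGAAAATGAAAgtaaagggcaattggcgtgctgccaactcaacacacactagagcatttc
Gbp5, chr2:233910749-233910998: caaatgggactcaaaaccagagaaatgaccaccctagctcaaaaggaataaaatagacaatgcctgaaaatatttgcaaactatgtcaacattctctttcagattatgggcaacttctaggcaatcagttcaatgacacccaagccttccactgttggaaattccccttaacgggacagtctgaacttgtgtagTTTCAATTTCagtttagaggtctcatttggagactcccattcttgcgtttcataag
Ifit3, chr1:241527076-241527325: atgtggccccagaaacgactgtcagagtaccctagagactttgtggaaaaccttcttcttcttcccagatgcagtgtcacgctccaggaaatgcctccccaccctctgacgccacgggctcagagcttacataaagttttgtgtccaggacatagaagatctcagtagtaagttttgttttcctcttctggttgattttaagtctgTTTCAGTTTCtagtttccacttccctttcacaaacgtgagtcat
The first match starts 91 bases before the gene start in Ifi44l, which holds 2, and 56 and 44 bases before it in Gbp5 and Ifit3. A match describes these letters and was not shown to be bound in these livers.

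Ifi44l, an interferon-induced protein gene of the cytoplasm, had log2 signals of 7.19 (array 24), 7.17 (44), 7.05 (45), 7.33 (46) and 7.77 (47) in the HFD line. The chow line ran from 7.53 through a median of 7.99 to 8.30, so array 47 lay within the chow-line range and the other 4 below it. The difference was -0.62 ± 0.16 (1.54-fold lower; adjusted p = 0.279) and -0.52 after quantile normalization. Gbp5, a guanylate-binding GTPase of the inflammasome response, measured 7.16, 7.43, 7.18, 7.12 and 7.65 in the same order of arrays, against 7.33, 7.75 and 7.95 (lowest, median and highest) in the chow line. Its difference was -0.42 ± 0.14 (adjusted p = 0.368; -0.31 after quantile normalization). Ifit3, which binds foreign RNA together with other IFIT proteins, measured 7.22, 7.37, 7.05, 7.01 and 7.57 against 7.45, 7.54 and 7.97, a difference of -0.39 ± 0.14 (adjusted p = 0.401; -0.29). In both, array 47 of the HFD line was the highest of its group.

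Rtp4, an interferon-induced chaperone of receptor transport that dampens antiviral signalling, had the smallest p of the list. As deposited it separated the groups, by 9.25 against 9.34, a gap smaller than the general shift of bright genes. Its log2 signal was 8.10 (array 24), 8.95 (44), 7.97 (45), 9.24 (46) and 9.25 (47) in the HFD line and 9.34, 9.53 and 9.87 at the lowest, median and highest in the chow line. The difference was -0.87 ± 0.22 (95% interval -1.32 to -0.42; 1.83-fold lower; adjusted p = 0.279) and -0.75 after quantile normalization. Arrays 24 and 45 were about a whole log2 unit lower than 46 and 47. In chow-fed females the lines differed by 0.05 in Rtp4. The difference between the 2 contrasts was -0.92 (unadjusted p = 0.00465, adjusted p = 0.307), so it did not pass as particular to the HFD-fed females.

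Dtx3l, a ubiquitin ligase that works with a PARP enzyme in interferon signalling and DNA repair, was not on the list but was among the 10 named genes with the smallest p in the lower direction. It measured 9.09, 9.06, 8.77, 9.20 and 9.06 in the HFD line (arrays 24, 44, 45, 46 and 47) against 9.27, 9.58 and 9.84 in the chow line, again without overlap. Array 45 was the lowest of the HFD line, and its other arrays lay between 9.06 and 9.20. The difference was -0.50 ± 0.12 (adjusted p = 0.279; -0.35 after quantile normalization), and in chow-fed females it was -0.01 (difference of the 2 contrasts -0.49, adjusted p = 0.34). Its RefSeq window holds 1 match to the same core, at bases 11 to 20 after the start.

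Other interferon-inducible genes, picked after their values were seen, had the same sign, except Ifit1, given below. Ifit2, a partner of Ifit3, was lower by 0.44 with no overlap (8.58, 8.42, 8.58, 8.89 and 8.80 against 8.98 to 9.27). The antiviral GTPase gene Mx2 differed by -0.87 ± 0.31 (-0.78 after quantile normalization) and the RNA sensor gene Oas1a by -0.90 ± 0.39 (-0.82), both with overlapping groups. Both were lowest in array 24 and highest in array 47 among the HFD-line livers: Mx2 measured 6.38 and 8.61 there, and Oas1a 6.58 and 8.83. For Irf1, a transcription factor of the interferon response, the difference was -0.49 ± 0.20, and for Tap1 and Psmb9, which carry and cut peptides for class I presentation, it was -0.40 ± 0.15 and -0.34 ± 0.13. After quantile normalization these 3 were -0.36, -0.28 and -0.20. Samd9l, an interferon-inducible restriction factor, measured 7.71, 7.65, 7.49, 7.77 and 8.06 in the HFD line, against 7.55, 8.48 and 8.93 in the chow line, where array 34 was the only one under 8. Its difference was -0.71 ± 0.18 with all arrays (adjusted p = 0.279) and -0.89 ± 0.15 without array 34, where limma's adjusted p was 0.0133 and 4 probe sets, all of Samd9l, passed the threshold. Those 4 had near-identical differences (-0.92 in 3 of them, and -0.89) and do not count as independent. In chow-fed females Samd9l also differed, by -0.54 (unadjusted p = 0.00355, adjusted p = 0.448), and the difference of the 2 contrasts was -0.17.

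**Figure D3:**
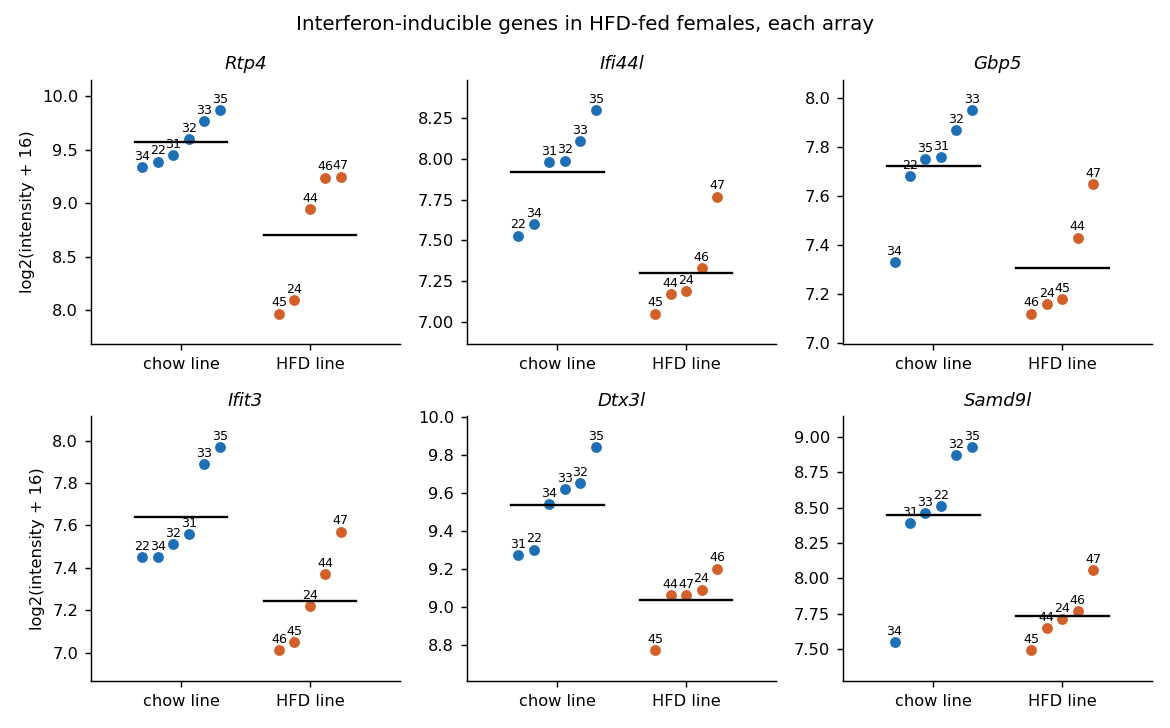
Log2(intensity + 16) of 6 interferon-inducible genes in each HFD-fed female, chow line (6 arrays) beside HFD line (5 arrays); points are arrays with their numbers and bars are group means. Rtp4 and Dtx3l do not overlap between lines, and in Samd9l array 34 of the chow line lies at 7.55 among the HFD-line values.

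Ifit1, of the same family as Ifit2 and Ifit3, was dim in the chow line. It measured 5.80, 6.91, 7.17, 6.24 and 6.94 in the HFD line and 4.41, 4.81 and 6.83 (lowest, median and highest) in the chow line. Ifit1 was thus higher in the HFD line, opposite in sign to the interferon genes named above. Chow-line arrays 22 (4.80), 32 (4.63), 33 (4.41) and 35 (4.82) lay below the dim threshold of 5.72, so its size carries little weight and is not given. By the values above, the rise in the group mean was still larger than any fall named above for an interferon gene.

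Class I antigen presentation as a list lay near the general shift (13 measured of 15, 8 lower, 1 lower at an unadjusted p under 0.05, median -0.06 as deposited and 0.03 after quantile normalization). RT1-CE5, a class I gene of the rat major histocompatibility complex, differed by -0.53 ± 0.23 and RT1-S3 by -0.26 ± 0.14 (-0.41 and -0.12 after quantile normalization). Near-identical class I genes share probes, so these values are uncertain as to the gene.

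Markers of resident macrophages had a median at 0 as deposited. Of 17 Kupffer cell and macrophage markers 15 were measured, 8 higher and 7 lower, none at an unadjusted p under 0.05 as deposited, with a median of 0.00. After quantile normalization 11 were higher, 2 of them at an unadjusted p under 0.05 where 2.32% of all genes were, and the median was 0.14. With 1 array left out that median ran from 0.04 (without array 34) to 0.18. Between females fed chow all 15 were lower, with medians of -0.16 and, after quantile normalization, -0.17. The difference of the 2 contrasts had medians of 0.18 and 0.31. After normalization it was above 0 for 14 of 15 genes, 3 at an unadjusted p under 0.05 where 2.4% of all genes were. Averaged over the list, arrays lay between -0.41 and 0.16 in the HFD line and between -0.70 and 0.02 in the chow line. Clec4f, a lectin found in Kupffer cells, differed by 0.26 ± 0.20 (0.40 after quantile normalization). Cd14, a receptor for bacterial lipopolysaccharide, differed by -0.23 ± 0.16 (-0.09 after quantile normalization), and its difference ran from -0.33 to 0.02 over both settings with 1 array left out. Lymphocyte markers (12 measured of 19) had a median of 0.01 as deposited and 0.03 after quantile normalization, with array averages of -0.17 to 0.20 in the HFD line and -0.36 to 0.02 in the chow line. In whole liver, fewer cells of a type and less RNA per cell cannot be told apart.

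Between females fed chow, the interferon list also leaned down, by less: 22 of 27 genes were lower, 4 at an unadjusted p under 0.05 where 4.71% of all genes were, with a median of -0.16. After quantile normalization 23 were lower, 3 so where 4.74% of all genes were, with a median of -0.15. The difference of the 2 contrasts had a median of -0.21 over the list, beside -0.098 over all probe sets, with 2 genes lower and none higher at an unadjusted p under 0.05 where 7.41% of all genes were lower and 0.675% higher. After quantile normalization that median was -0.07. No test here showed the lower interferon genes to be particular to females on the HFD.

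Genes of fatty acid oxidation, most of them PPAR alpha targets, had a median difference between lines of -0.20 on the HFD and 0.11 on chow, and none passed the adjusted threshold on either diet. Of 29 listed, 24 were measured. On the HFD 22 were lower, 6 of them at an unadjusted p under 0.05 where 9.96% of all genes were. After quantile normalization 17 were lower, 2 of them so where 2.59% of all genes were, with a median of -0.05. Without arrays 21, 22, 24 and 25 and after quantile normalization 11 were higher and 13 lower, with a median of -0.01 and 0 genes at that p. On chow 19 were higher, 7 at an unadjusted p under 0.05 where 3.3% of all genes were. After quantile normalization 17 were higher, 8 so where 6.31% of all genes were, with a median of 0.07. The difference of the 2 contrasts was below 0 for 23 of 24 genes, 12 of them at an unadjusted p under 0.05 where 7.41% of all genes were, with a median of -0.31, beside -0.098 over all probe sets. After quantile normalization 18 were below 0, 7 at an unadjusted p under 0.05 where 3.13% of all genes were, with a median of -0.14. No gene of the list passed the adjusted threshold in any of the 3 contrasts. Other lists of bright genes had nearly as large a median difference of contrasts as deposited, -0.29 for oxidative phosphorylation (15 of 34 genes at an unadjusted p under 0.05) and -0.30 for cytosolic ribosomal proteins (11 of 21), and -0.12 (3 of 34) and -0.09 (2 of 21) after quantile normalization.

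Vnn1, a pantetheinase and strong PPAR alpha target, had the largest such difference. On the HFD its log2 signal was 7.33 (array 24), 9.22 (44), 8.89 (45), 9.02 (46) and 8.60 (47) in the HFD line against 9.24, 9.34 and 9.97 in the chow line. The groups did not overlap, by a margin of 9.22 against 9.24, and array 24 lay far under the rest. The difference was -0.82 ± 0.32 (adjusted p = 0.434), -0.69 after quantile normalization and -0.50 without array 24. On chow it was 0.73, and the difference of the 2 contrasts was -1.55 ± 0.43 (unadjusted p = 0.00142, adjusted p = 0.24; -1.43 after quantile normalization).

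Among the enzymes of the oxidation pathway itself, Slc25a20, which carries acylcarnitines into mitochondria, measured 9.64, 10.45, 10.15, 10.31 and 10.08 in the HFD line (arrays 24, 44, 45, 46 and 47) against 10.18, 10.44 and 10.65 in the chow line. Its difference was -0.32 ± 0.14 on the HFD (-0.17 after quantile normalization) and 0.28 on chow (difference of contrasts -0.60, unadjusted p = 0.00388, adjusted p = 0.296). Array 24 was again the lowest and array 44 within the chow-line range. The acyl-CoA thioesterase genes Acot2 and Acot1 differed by -0.53 ± 0.23 and -0.44 ± 0.18 on the HFD (-0.38 and -0.41 after quantile normalization) and by 0.23 and -0.13 on chow.

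Eci1, Ech1 and Decr1, auxiliary enzymes for unsaturated fatty acids chosen after their values were seen, show how much rests on array 24. Eci1 measured 10.05, 11.61, 10.94, 10.92 and 10.65 in the HFD line against 10.98 to 11.49 in the chow line, and its difference of -0.43 ± 0.23 became -0.23 without array 24. For Ech1 the values were -0.25 ± 0.19 and -0.06. For Decr1 they were -0.28 ± 0.17 and -0.15. On chow the 3 genes differed by 0.63, 0.66 and 0.48, with unadjusted p of 0.00682, 0.000913 and 0.00443. Cpt1a, the gate of fatty acid entry into mitochondria, ran from 10.97 (array 24) to 12.24 (array 44) in the HFD line, a range wider than the chow line's 11.60 to 12.04. Over the list, leaving out each array in turn left between 1 and 10 genes lower at an unadjusted p under 0.05. The gene for the receptor itself, Ppara, differed by 0.02 ± 0.16.

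**Figure D4:**
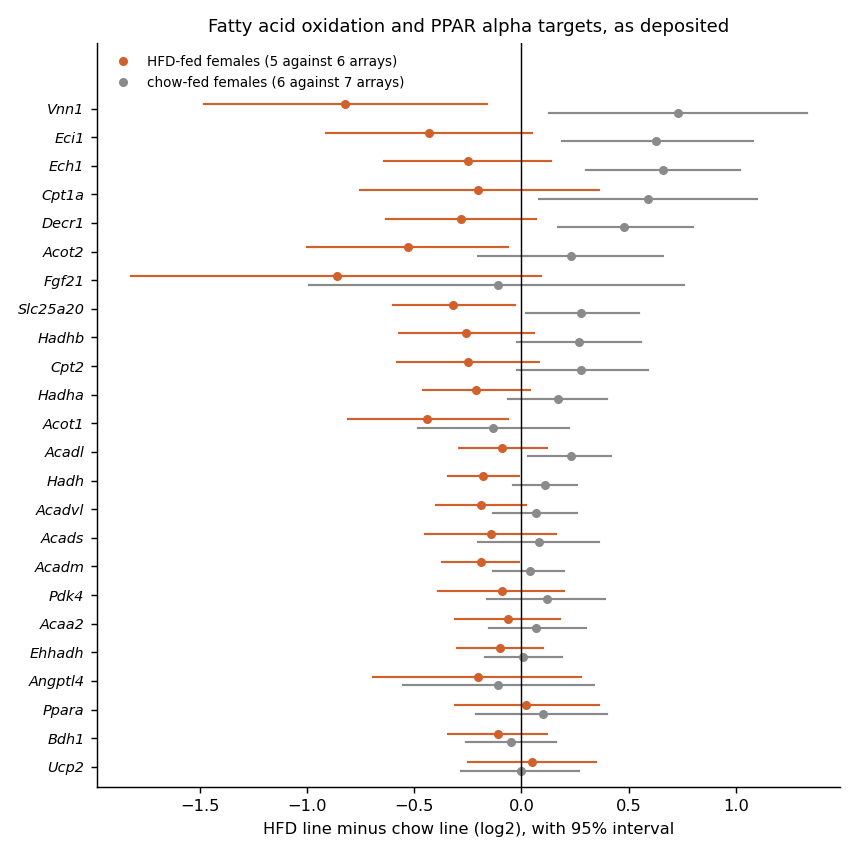
Difference between lines (HFD line minus chow line, log2, as deposited) with limma's 95% interval for the 24 measured genes of fatty acid oxidation and PPAR alpha targets, in HFD-fed females (orange) and chow-fed females (grey), ordered by the difference between the 2 contrasts. Of the 24 orange points 22 lie below 0, and 19 grey points lie above it; Vnn1, at the top, has -0.82 and 0.73.

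Genes of fatty acid and triglyceride synthesis had a median above the general shift. Of 20 measured genes of 25, 11 were higher and 9 lower, 2 at an unadjusted p under 0.05 in the lower direction, with a median of 0.02, and 0.11 after quantile normalization. Scd2, a stearoyl-CoA desaturase outside that list and a minor form in adult liver, was among the 10 genes with the smallest p in the higher direction. It measured 11.49 (array 24), 11.42 (44), 11.07 (45), 10.37 (46) and 9.49 (47) in the HFD line against 7.91, 8.95 and 11.08 in the chow line, where arrays 31 (11.08) and 35 (10.38) were as high as the HFD line. The difference was 1.47 ± 0.55 (2.77-fold higher; adjusted p = 0.433; 1.60 after quantile normalization), the reverse of the -1.07 between lines on chow (difference of contrasts 2.54, unadjusted p = 0.00234, adjusted p = 0.267). The main liver desaturase gene Scd differed by -0.03 ± 0.15. Pnpla3, a lipid droplet protein gene under SREBP control, ran from 8.93 to 12.34 in the HFD line and from 9.57 to 12.36 in the chow line, a difference of 0.69 ± 0.71.

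The 4 genes of that list with the smallest p were lower in the HFD line. Dgat1, which makes the last bond of triglycerides, differed by -0.28 ± 0.11 and Agpat2, an earlier acyltransferase, by -0.22 ± 0.11. Elovl2, which lengthens polyunsaturated fatty acids, measured 10.22, 9.99, 10.15, 9.99 and 10.03 against 10.27, 10.46 and 10.67, without overlap, a difference of -0.40 ± 0.21 (unadjusted p = 0.061). The gap in Elovl2, 10.22 against 10.27, was smaller than the general shift of bright genes. Elovl5, with a related role, differed by -0.18 ± 0.10. After quantile normalization these were -0.14, -0.07, -0.25 and -0.05.

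Lipid droplet genes were lower by about the general shift. Of 19 measured of 20, 17 were lower, 1 at an unadjusted p under 0.05, with medians of -0.14 as deposited and -0.01 after quantile normalization. G0s2, an inhibitor of triglyceride breakdown, measured 9.21, 9.98, 10.13, 9.50 and 9.51 in the HFD line and 9.63, 10.43 and 10.63 in the chow line (-0.58 ± 0.26; -0.44 after quantile normalization). Plin2, the coat protein of liver lipid droplets, differed by -0.44 ± 0.21, the lipase gene Pnpla2 by -0.29 ± 0.15 and Cidea, which fuses droplets, by -0.43 ± 0.23, all with overlapping groups. After quantile normalization these were -0.30, -0.14 and -0.31. The breakdown enzyme and its inhibitor thus had the same sign.

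Cholesterol synthesis and uptake genes had a median at the general shift. Of 20 measured of 26, 17 were lower, 2 at an unadjusted p under 0.05 where 9.96% of all genes were, with a median of -0.12. After quantile normalization 12 were higher, with a median of 0.02. Lss, which closes the sterol ring, differed by -0.50 ± 0.19 (-0.36 after quantile normalization). Its HFD-line values of 9.39, 9.05, 9.44, 9.31 and 9.51 lay close together, while the chow line spread from 9.38 to 10.45. Idi1, an enzyme of isoprenoid synthesis, differed by -0.50 ± 0.32, Fdps by -0.21 ± 0.10 and Nsdhl by -0.14 ± 0.09. After quantile normalization these were -0.37, -0.06 and 0.00.

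For bile acids, 15 of 17 genes were measured, with a median of -0.05 and 3 lower at an unadjusted p under 0.05 where 9.96% of all genes were. After quantile normalization 10 were higher and 5 lower, 1 lower at that p where 2.59% of all genes were, with a median of 0.02. Abcb4, the phospholipid pump of the bile canaliculus, had the smallest p. It measured 9.74 (array 24), 10.13 (44), 10.03 (45), 10.43 (46) and 10.10 (47) in the HFD line and 10.39, 10.55 and 10.99 in the chow line, and only array 46 reached the chow-line range. The difference was -0.51 ± 0.16 (adjusted p = 0.328; -0.36 after quantile normalization) and 0.07 on chow. Slc10a1, the uptake carrier for bile acids, differed by -0.21 ± 0.08, the synthesis enzyme gene Akr1d1 by -0.23 ± 0.09 and the bile acid receptor gene Nr1h4 by -0.23 ± 0.13, each under 0.10 in size after quantile normalization. Cyp7a1, the rate-limiting enzyme of bile acid synthesis, differed by 0.19 ± 0.27.

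Drug-metabolising genes had a median a little below the general shift. Of 19 measured of 23, 16 were lower, 6 at an unadjusted p under 0.05 where 9.96% of all genes were, with a median of -0.20. After quantile normalization 14 were lower, 3 so where 2.59% of all genes were, with a median of -0.07. Without arrays 21, 22, 24 and 25 only 2 were lower at that p as deposited (median -0.19) and 1 after quantile normalization (-0.06). Cyp2a1, a steroid hydroxylase, measured 12.22, 12.11, 12.37, 12.43 and 12.46 in the HFD line against 12.49, 12.56 and 12.74, without overlap, a difference of -0.26 ± 0.07 (adjusted p = 0.279; -0.14 after quantile normalization). The gap in Cyp2a1, 12.46 against 12.49, was smaller than the general shift of bright genes. Nr1i3, the receptor CAR that switches on many drug-metabolising genes, measured 7.27, 8.40, 7.61, 8.36 and 7.92 against 8.35, 8.37 and 8.75. Arrays 44 and 46 reached the chow-line range and arrays 24 and 45 were far below it. Its difference was -0.53 ± 0.19 on the HFD and 0.28 on chow (difference of contrasts -0.82, adjusted p = 0.295). Cyp2b1, a classical target of that receptor, differed by -0.29 ± 0.19. Cyp3a18 differed by -0.92 ± 0.34 with wide overlap (7.08 to 8.92 against 7.81 to 9.95), and Cyp2e1, which oxidises ethanol and ketones, by -0.17 ± 0.07. For Nr1i3, Cyp2b1, Cyp3a18 and Cyp2e1 the differences after quantile normalization were -0.43, -0.24, -0.79 and -0.07.

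Of 18 clock genes 14 were measured, 9 higher and 5 lower, 1 of them lower at an unadjusted p under 0.05 as deposited, with a median of 0.06. After quantile normalization the median was 0.19, with 1 higher and none lower at that p. Without arrays 21, 22, 24 and 25 the medians were 0.16, with 3 lower at that p, and 0.27, with none lower. The 4 of them with the smallest p were Clock, Bmal1, Npas2 and Per2. The activators Bmal1 and Npas2 and the repressor Per2 peak at opposite times of day, and the labels used here give no hour of dissection. In the HFD line Bmal1 measured 8.33 (array 24), 6.09 (44), 8.57 (45), 9.24 (46) and 6.79 (47), beside 7.88 to 9.24 in the chow line. Npas2 measured 10.06, 7.81, 9.67, 10.05 and 8.79 in the same order, beside 9.50 to 10.35. Per2 measured 8.19, 9.55, 8.17, 7.40 and 9.51, beside 7.53 to 8.56. Arrays 44 and 47 were thus low in both activators and high in the repressor, outside the chow line's range in all 3 genes. The differences between lines were -0.88 ± 0.49, -0.57 ± 0.33 and 0.51 ± 0.30 (-0.75, -0.42 and 0.64 after quantile normalization). Clock, the partner of Bmal1, measured 9.75, 9.14, 9.46, 9.89 and 9.54 beside 9.80 to 10.05 in the chow line, lowest in arrays 44 and 45, and differed by -0.38 ± 0.16 (unadjusted p = 0.0275; -0.24 after quantile normalization). Whether arrays 44 and 47 carry other differences through this was not tested.

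The large housekeeping groups had medians at the general shift of bright genes. Among 34 measured genes of oxidative phosphorylation 33 were lower, 7 at an unadjusted p under 0.05, with a median of -0.16, and after quantile normalization the median was -0.01 with none at that p. All 21 measured cytosolic ribosomal protein genes were lower, 5 at an unadjusted p under 0.05 (median -0.15, then 0 with none). Rpl21, another ribosomal protein gene, has 46 probe sets under its name, which near-identical gene copies may share. As deposited all 46 were lower at an unadjusted p under 0.05, with a median of -0.284, and 31 were after quantile normalization, with a median of -0.135. Probe sets that share sequence do not count as independent. All 20 measured genes of DNA methylation and chromatin were lower, as were 81.7% of all genes, and 3 at an unadjusted p under 0.05, where 9.96% of all genes were. Their median of -0.16 became -0.03 after quantile normalization, with none at that p. The 3 were Kat2b (-0.30 ± 0.11), Kdm6b (-0.27 ± 0.12) and the de novo DNA methyltransferase gene Dnmt3a (-0.21 ± 0.09). Their quantile-normalized differences were -0.16, -0.13 and -0.09. All 19 measured complement and coagulation genes were lower (median -0.15, then -0.01), 5 of them at an unadjusted p under 0.05 as deposited, where 9.96% of all genes were. C1s, a complement protease, differed by -0.41 ± 0.14 and Cfi, a complement inhibitor, by -0.19 ± 0.08 (-0.27 and -0.05 after quantile normalization). Without arrays 21, 22, 24 and 25 the complement and coagulation list had 2 genes at that p as deposited (median -0.12), and none after quantile normalization (median 0).

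Immediate early and cell cycle genes had medians below the general shift. Of 15 measured immediate early genes 13 were lower, 2 at an unadjusted p under 0.05 where 9.96% of all genes were, with a median of -0.24 as deposited. After quantile normalization the median was -0.15, with none at that p. Without arrays 21, 22, 24 and 25 the medians were -0.16 as deposited and -0.07 after quantile normalization. Between females fed chow 10 were lower and 5 higher, with a median of -0.24 as deposited and -0.22 after quantile normalization. The difference of the 2 contrasts had medians of -0.02 and 0.11. Jun measured 10.30, 10.75, 10.29, 10.09 and 10.76 against 10.66, 10.96 and 11.42 (-0.56 ± 0.26), Dusp1, a phosphatase that ends MAP kinase signalling, differed by -0.33 ± 0.12, and Junb by -0.52 ± 0.26. After quantile normalization these were -0.40, -0.20 and -0.38. Of 21 measured cell cycle genes 18 were lower, 3 at an unadjusted p under 0.05 where 9.96% of all genes were, with a median of -0.18. After quantile normalization 1 was lower at that p, where 2.59% of all genes were, with a median of -0.09. Mki67, a marker of cycling cells, measured 6.89, 6.05, 6.73, 7.12 and 5.99 in the HFD line and 6.32 to 8.22 in the chow line, where array 31 was the highest. Its difference of -0.55 ± 0.26 became -0.33 without that array, and those of Ccna2 and Ccnb2, both cyclins, went from -0.46 ± 0.18 to -0.31 and from -0.27 ± 0.12 to -0.16.

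Glucose metabolism and insulin signalling genes also had a median at the general shift. Of 15 measured of 18, none had an unadjusted p under 0.05, with a median of -0.12 and -0.01 after quantile normalization. Pck1, the gate of gluconeogenesis, differed by -0.19 ± 0.19 (95% interval -0.57 to 0.19). For the growth hormone axis (15 measured of 16) the medians were -0.11 and 0.03, and Igf1 differed by -0.11 ± 0.07.

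The other lists are given by their medians, as deposited and then after quantile normalization. Sex-biased liver genes had all 12 measured members lower as deposited, with medians of -0.20 and -0.09. Of these genes 5 were lower at an unadjusted p under 0.05 where 9.96% of all genes were, and 3 after normalization where 2.59% were. They share members with the drug-metabolising list. Lipoprotein genes (13 measured) had medians of -0.13 and -0.02, acute phase and inflammation genes (20) -0.12 and -0.01, urea cycle and amino acid genes (19) -0.11 and 0.01, and one-carbon metabolism genes (17) -0.05 and 0.09. Among stress programmes, NRF2 targets (15) had -0.16 and -0.02 (-0.12 and -0.01 without arrays 21, 22, 24 and 25, with 4 and 2 lower at an unadjusted p under 0.05), endoplasmic reticulum stress genes (16) -0.19 and -0.05, heat shock genes (10) -0.16 and -0.01, and glucocorticoid action genes (11) -0.02 and 0.07. With all arrays, each of these 8 lists had 1 or 2 genes lower at an unadjusted p under 0.05 as deposited and none lower after normalization. Imprinted growth genes (12) had -0.11 and -0.05, with 1 lower in both, Phlda2, a growth-restraining placental gene, at -0.31 ± 0.11. A list of 24 genes that earlier work on these samples had named for the females' own diet had -0.19 and -0.12, and is no independent evidence since these arrays helped to choose it.

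**Figure D5:**
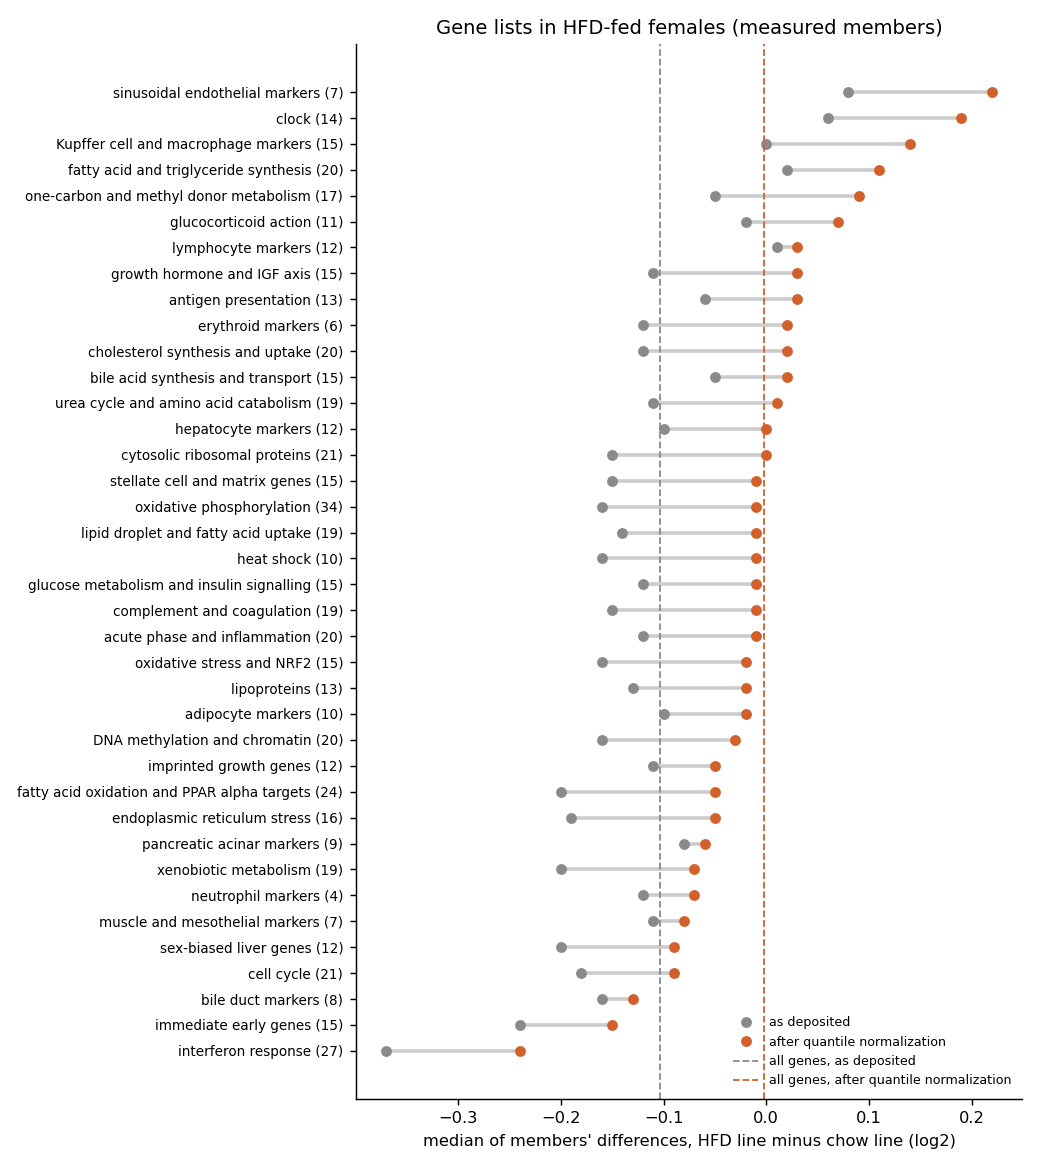
Median over measured members of the difference between lines in HFD-fed females (HFD line minus chow line, log2) for 38 gene lists, as deposited (grey) and after quantile normalization (orange), with the medians over all genes as dashed lines; the number of measured members is in brackets. The interferon list lies lowest in both, at -0.37 and -0.24, and the sinusoidal endothelial, clock and Kupffer cell lists lie highest after normalization, at 0.22, 0.19 and 0.14.

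Markers of hepatocytes had a median at the general shift. Hepatocyte markers (12 measured of 14) had a median of -0.10 as deposited and 0.00 after quantile normalization, and adipocyte markers (10 of 12) -0.10 and -0.02. Sinusoidal endothelial markers (7 of 12) had medians of 0.08 and 0.22. With 1 array left out these ran from -0.03 to 0.16 and from 0.12 to 0.31. After quantile normalization the median was nearest 0 without array 24, which had the highest array average over this list (0.29) and is 1 of the arrays that stood apart. Among these markers 1 was lower at an unadjusted p under 0.05 as deposited: Clec4g, a lectin of these cells, differed by -0.34 ± 0.14 (-0.20 after quantile normalization), opposite in sign to the median of its list. Lyve1, a hyaluronan receptor of the same cells, differed by 0.15 ± 0.15 (0.30 after quantile normalization). Bile duct markers (8 of 10) had medians of -0.16 and -0.13 (-0.23 and -0.18 without arrays 21, 22, 24 and 25), with Sox9 at -0.31 ± 0.10 and Krt19 at -0.36 ± 0.16 (-0.19 and -0.27 after quantile normalization). Krt19 had a single high chow-line array (7.92 in array 31, the others 6.86 to 7.25), and its difference was -0.21 without it.

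Pancreatic acinar markers (9 measured of 14) had medians of -0.08 as deposited and -0.06 after quantile normalization. Averaged over the list, arrays 24, 44, 45 and 46 of the HFD line lay at -0.20, -0.21, -0.19 and -0.43 and array 47 at 0.04, beside -0.06 to 0.15 in the chow line. After quantile normalization the 4 lay between -0.36 and -0.15 and array 47 at 0.03, beside -0.09 to 0.18, so they were below the chow line's range in both settings. The 1 marker lower at an unadjusted p under 0.05 was Cpa1, a digestive carboxypeptidase gene. Cpa1 measured 8.91 (array 24), 10.58 (44), 10.24 (45), 7.13 (46) and 11.79 (47) in the HFD line and 10.31, 11.63 and 11.95 in the chow line. The list averages above include Cpa1, which was lowest in arrays 46 and 24, and are not given without it. The difference of -1.64 ± 0.51 (adjusted p = 0.325; -1.47 after quantile normalization) was -0.99 without array 46. Msln, a mesothelial gene, differed by -0.59 ± 0.23 (-0.50 after quantile normalization). The remaining marker lists were those of stellate cells and matrix (15 measured, medians -0.15 and -0.01, and -0.21 and -0.12 without arrays 21, 22, 24 and 25), neutrophils (4, -0.12 and -0.07), erythroid cells (6, -0.12 and 0.02) and muscle and mesothelium (7, -0.11 and -0.08). Whether any other tissue was carried over at dissection, and whether it would enter other differences, was not tested.

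The genes with the smallest p in the lower direction, apart from those above, did not form a listed group. Fam181b, of unknown function here, measured 9.92, 10.05, 9.85, 10.10 and 9.93 in the HFD line and 10.18, 10.40 and 10.59 in the chow line, without overlap. Its difference was -0.44 ± 0.09 (adjusted p = 0.279; -0.29 after quantile normalization), and against 0.11 on chow the difference of contrasts was -0.55 (unadjusted p = 0.000205, adjusted p = 0.131). Glrx, a glutaredoxin that removes glutathione from protein thiols, measured 10.34, 9.88, 9.96, 10.48 and 10.45 against 10.62, 10.93 and 11.28, again without overlap. The difference was -0.75 ± 0.18 (1.68-fold lower; -0.59 after quantile normalization) and 0.07 on chow (difference of contrasts -0.81, adjusted p = 0.267). Sntb1, a syntrophin of the dystrophin complex, measured 8.67, 8.97, 9.08, 9.34 and 9.20 against 9.42, 9.76 and 10.45 (-0.80 ± 0.20; -0.66). Slc28a2, a purine nucleoside carrier, differed by -0.66 ± 0.16 and by 0.00 on chow. Fam13a, a gene tied to fat distribution, differed by -0.71 ± 0.17 on the HFD and by -0.31 on chow. Gria3, a glutamate receptor subunit gene with dim signal here (5.53 to 7.12), and Mfhas1, a regulator of Toll-like receptor signalling, did not overlap between lines and differed by -0.67 ± 0.16 and -0.42 ± 0.10. Cox6c-ps1 differed by -0.48 ± 0.11. For Slc28a2, Fam13a, Gria3, Mfhas1 and Cox6c-ps1 the differences after quantile normalization were -0.50, -0.57, -0.63, -0.33 and -0.36. Each of these had an adjusted p of 0.279.

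In the higher direction the smallest p belonged to St6galnac3, a sialyltransferase. It measured 6.34 (array 24), 6.58 (44), 6.99 (45), 6.88 (46) and 6.95 (47) in the HFD line against 6.00, 6.29 and 6.50, with array 24 within the chow-line range. The difference was 0.46 ± 0.16 (adjusted p = 0.387; 0.53 after quantile normalization). Kit, the receptor of stem cell factor found on mast cells and some progenitors, was the only one of the 10 that did not overlap, at 6.34, 6.29, 6.61, 6.43 and 6.41 against 5.83, 6.19 and 6.24. Its difference was 0.28 ± 0.11. Bcr, a kinase and GTPase regulator, differed by 0.35 ± 0.13 and the integrin subunit gene Itgb5 by 0.35 ± 0.14. Cd160, a receptor on natural killer and some T cells, differed by 0.27 ± 0.10, Stap1 by 0.25 ± 0.09 and Rasgrf2 by 0.20 ± 0.08. The olfactory receptor genes Or2ak6 and Or8c19 were near the dim threshold and differed by 0.25 and 0.26.

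Over all probe sets, the differences between lines in HFD-fed and in chow-fed females shared no arrays and had a Pearson correlation of -0.0197 across probe sets as deposited (Spearman 0.013) and 0.059 after quantile normalization (Spearman 0.134), a description of 15687 values that are not independent. No probe set passed the adjusted threshold for a difference between the 2 contrasts (smallest adjusted p 0.131 as deposited and 0.102 after quantile normalization in limma; 234 higher and 1289 lower at an unadjusted p under 0.05 as deposited, or 1.49% and 8.22%, and 477 and 569 after, or 3.04% and 3.63%). In the chow-fed females none passed as deposited, with 608 higher and 827 lower at an unadjusted p under 0.05 (3.88% and 5.27%). After quantile normalization those shares were 6.65% and 4.99%, and 1 probe set (0.00637%), of Fam120a, passed and was lower (-0.33 ± 0.05, limma adjusted p = 0.0118), a gene chosen after its value was seen. In HFD-fed females the same probe set of Fam120a differed by -0.21 as deposited and -0.07 after normalization.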

How the data were processed

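Total RNA (200 ng input, per the labels) was hybridised to an Affymetrix whole-transcript rat array, 1 array per female. The deposited value table holds linear intensity for 20917 probe sets; per the submitters' processing notes PLIER and Affymetrix Expression Console were used, with neither version nor any between-array step stated in those notes. Arrays carry no read depth, so their number limits the precision. Values were taken as log2(intensity + 16), the lowest 25% of probe sets by mean were left out (15687 stayed), and 4 group means over all 24 arrays were fitted in limma 3.58.1 (R 4.3.3; eBayes with intensity trend, Benjamini-Hochberg threshold 0.05), so that the 4 groups share 1 estimate of the spread. Fits were checked on simulated data. Each contrast was also run after quantile normalization. Array brightness was compared with a two-sided exact permutation test. Other alternatives were median centring, other offsets and filters, other variance settings, array weights, fewer arrays, a block for the 4 arrays that stood apart, 1 probe set per gene, and each HFD-fed array left out.

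Gene names came from the platform annotation through Entrez IDs: 18197 probe sets had 1 gene (18052 matched to RefSeq, build GRCr8), 960 several and 1760 none; in gene lists the brightest probe set stood for a gene. Genes were named by rule: with 1 symbol not starting with LOC or RGD, the 10 largest changes in each direction past the threshold, filled with the smallest p where fewer passed, and up to 4 members with the smallest p of each list described. Samd9l, Ifit1, Ifit2, Mx2, Oas1a, Irf1, Tap1, Psmb9, Eci1, Ech1, Decr1, Cpt1a, Ppara, Scd, Pnpla3, Cyp7a1, Cyp2b1, Pck1, Igf1, Bmal1, Npas2, Per2, Mki67, cell type markers, Fam120a and the unnamed probe set were chosen after their values were seen. Of these, Bmal1, Npas2, Per2 and Mki67 also met the rule, being among the members of their lists with the smallest p. The comparison, the members and the lists were chosen with earlier results of these data known. Figures were drawn with matplotlib 3.10.9 under Python 3.11.15.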

Additional observations from a re-analysis of the deposited data

Results flagged for a closer look

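In each group of HFD-fed females, the gap between the highest or lowest array and its nearest neighbour was set against Dixon's 95% critical value for the group's size. Of 184 groups of values checked, 11 had such an array, where chance gives about 1 in 20. In the HFD line, Irs1, an insulin receptor substrate, was 8.55 in array 24, with the others at 8.86 to 8.98. Ccnb2 was 6.29 in array 45, with the others at 5.76 to 5.91, and Rpl27, a ribosomal protein gene, was 11.09 in array 47, with the others at 11.20 to 11.23.

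In the chow line, array 34 was low in brightness (6.83, the others 7.02 to 7.10) yet high in Vnn1 (9.97, the others 9.24 to 9.46). Array 22 was low in Kit (5.83, the others 6.13 to 6.24) and in Cp, the plasma copper carrier ceruloplasmin (12.39, the others 12.63 to 12.75). Cyp2a1 was 12.74 in array 35 (the others 12.49 to 12.58) and Nr1i3 8.75 in array 33 (the others 8.35 to 8.50). Clec4g was 9.69 in array 32 (the others 9.08 to 9.30), and Krt19 was 7.92 in array 31 (the others 6.86 to 7.25).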

How the results depend on the processing

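With all 11 arrays of HFD-fed females kept, no probe set passed the adjusted threshold for grandpaternal diet under any normalization, filter, offset, variance setting, array weights or block tried. In limma fits of all 24 arrays the smallest adjusted p lay between 0.076 (array weights) and 0.855 (median centring). With only the 11 arrays and quantile normalization limma's smallest adjusted p was 0.994. Leaving out each array in turn gave 0 to 4 lower probe sets and no higher one: 1 without array 22, as deposited and after quantile normalization, 1 without array 33 and 4 without array 34. Those 4 were all of Samd9l and do not count as independent. The count differing between own diets was 0 to 48: 48 without array 22, 37 of them of Rpl21, and, after quantile normalization, 1 without array 31 and 1 without array 44, both of Arpc1b. Counts lower at an unadjusted p under 0.05 moved from 1668 as deposited to 447 after quantile normalization and 501 after median centring, and ranged from 963 (without array 45) to 2256 (without array 47). The brightness difference was -0.13 over tested probe sets and -0.123 (without array 34) to -0.069 (without array 32) with an array left out. Near-zero values changed sign after quantile normalization with an array left out. With 1 array left out, in either setting, Nsdhl ran from -0.18 to 0.02 (above 0 without 31, 32 or 45), Elovl5 from -0.21 to 0.02 (without 47), Cd14 from -0.33 to 0.02 (without 44), Col4a1 from -0.22 to 0.01 (without 33 or 47) and Rpl27 from -0.21 to 0.03 (without 47). The cause was not tested. The list values with an array left out, and the fit without arrays 21, 22, 24 and 25 after quantile normalization, were added after seeing the data. The difference between own diets was not run on the 11 arrays alone, which hold 1 own diet. No paired analysis was possible because no replicate number occurs in more than 1 group.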

Other observations

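The largest differences, chosen after their values were seen, were mostly in genes that vary widely between single animals. Gdf15, a stress-induced hormone of the TGF-beta family, measured 9.75 (array 24), 8.84 (44), 9.39 (45), 9.02 (46) and 9.35 (47) in the HFD line and 9.82, 10.28 and 10.85 (lowest, median and highest) in the chow line, without overlap. The difference was -1.05 ± 0.31 (2.07-fold lower; limma adjusted p = 0.291; -0.90 after quantile normalization). Ifgga2l1, of the interferon-gamma-inducible GTPase family by its name, measured 9.27, 7.53, 7.81, 9.01 and 8.57 against 9.37, 9.53 and 9.74, also without overlap (-1.11 ± 0.33, limma adjusted p = 0.303), and differed by -0.80 in chow-fed females. Popdc2, a membrane protein gene known from heart muscle, measured 8.57, 7.73, 8.14, 8.90 and 8.03 against 8.38, 9.38 and 10.04 (-1.10 ± 0.32).

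Some genes lay below the dim threshold of 5.72 in some livers and far above it in others, so the sizes of their differences carry little weight. Akr1c2 measured 4.48, 11.14, 7.19, 5.29 and 4.49 in the HFD line and 4.95 to 10.42 in the chow line, so its difference of -1.82 had a standard error of 1.50. Fam111a measured 4.57, 4.94, 5.14, 7.66 and 7.30 against 5.94, 7.86 and 8.13, and differed by -1.56 ± 0.67 on the HFD and by -1.69 ± 0.62 on chow. Mlc1 measured 8.58, 8.85, 5.09, 8.49 and 5.40 against 5.38, 5.54 and 8.39, and differed by 1.24 ± 0.80 on the HFD and by 1.80 ± 0.73 on chow. The gene 4930488N24Rikl had its highest value, 9.56, in array 45 and differed by 0.99 ± 0.47 on the HFD and by -1.05 ± 0.43 on chow. A further probe set of this gene differed by 1.18 ± 0.53 on the HFD and by -1.23 on chow. Several unnamed probe sets with nearby numbers had the same signs, such as 10703308 at 1.24 ± 0.47 and -0.98. Probe sets that share sequence do not count as independent.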
